A study of Mus musculus with 12 samples.

Results

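The 10 genes described here are Aqp4, Kcnj10, Gja1, Gjb6, Slc1a2, Slc1a3, Glul, Aldh1l1, Fabp7 and Slc4a4, which encode channels, transporters and metabolic proteins that astrocytes use to keep the fluid around neurons constant. They were taken by symbol. Every probe set, a group of short DNA probes that together read 1 transcript, was included if the only gene symbol in the array's annotation was one of these names. That gave 23 of the 20393 probe sets with a single symbol, and 10 of 12394 genes. Of the 23, 22 passed a filter on low values and were tested among 16566 probe sets. The one that did not, 1450169_at of Slc4a4, exceeded the absent controls (27 probe sets for transcripts no mouse makes) on 0 of 12 arrays. Each gene is represented in counts by its brightest probe set, and the others are given beside it.

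RNA from mouse spinal cord was measured on 12 Affymetrix arrays in 4 groups of 3 biological replicates: polysome-bound RNA from injured cord, polysome-bound RNA from sham cord, total RNA from injured cord and total RNA from sham cord. All mice were wild-type C57BL/6 females aged 10 weeks. Injured mice had 80% of the cord cut across after a laminectomy, the opening of the bone over the cord. Sham mice, which the sample titles call naive, had the laminectomy without the cut. A 2.5 cm length of cord around the operated level was removed 9 hours later and homogenised whole. Total RNA came from a small part of the homogenate, and polysome-bound RNA, the mRNA that carries several ribosomes, from sucrose gradient fractions of the larger part. Label was made from 3 µg of polysome-bound RNA or 5 µg of total RNA, so a value is relative to the other transcripts of its own fraction. The tissue is whole cord and no astrocytes were isolated, the labels do not say whether animals were pooled, and 3 arrays a group limit the precision.

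Astrocytes take up the potassium and glutamate that active neurons release. Glutamate enters through sodium-driven transporters and is turned into glutamine, potassium enters through inward-rectifier channels, and both are spread through a network of cells joined by gap junctions. Around blood vessels, astrocyte endfeet carry dense arrays of the water channel aquaporin-4. After cord injury astrocytes become reactive, a state known for high Gfap and Vim, which encode intermediate filament proteins. Several of the genes are also known outside astrocytes: Glul and Kcnj10 in oligodendrocytes, Gja1 in meningeal and vascular cells, and Fabp7 and Slc1a3 in radial glia.

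Start regions of 6 genes that went different ways with injury are shown first, because the members share a cell type while their transcripts did not move together. RefSeq promoter windows of build GRCm38.p6, from 250 bases before to 50 bases after an annotated start, matched 9 of the 10 genes and gave 10 sequences. Aqp4 had no window, so it was not searched for motifs. The windows of Slc1a2 and Slc4a4 lie inside the annotated genes and not at their first base. The Slc4a4 gene begins at chr5:88793858. The Slc1a2 gene begins at chr2:102658239 and its window at 102706188. Gjb6 and Aldh1l1 were higher in injured cord in both fractions, Glul was higher with a second probe set that differed, Gja1 was lower on polysomes, and Fabp7 was lower in both fractions. Slc4a4 has 2 annotated starts here. Its probe set 1426432_a_at was called lower in total RNA and higher on polysomes, a rise whose call was lost without any 1 of 4 arrays. Which start its transcripts came from was not tested. The sequences are written 5′ to 3′ on the strand of the gene, and capitals mark the motif matches described after them.
Gjb6, chr14:57133562-57133861, minus strand: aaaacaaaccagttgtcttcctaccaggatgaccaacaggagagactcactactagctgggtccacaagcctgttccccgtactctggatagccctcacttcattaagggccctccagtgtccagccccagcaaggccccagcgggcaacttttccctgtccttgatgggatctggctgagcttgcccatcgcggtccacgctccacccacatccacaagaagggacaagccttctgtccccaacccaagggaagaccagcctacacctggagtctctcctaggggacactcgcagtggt
Gja1, chr10:56377050-56377349, plus strand: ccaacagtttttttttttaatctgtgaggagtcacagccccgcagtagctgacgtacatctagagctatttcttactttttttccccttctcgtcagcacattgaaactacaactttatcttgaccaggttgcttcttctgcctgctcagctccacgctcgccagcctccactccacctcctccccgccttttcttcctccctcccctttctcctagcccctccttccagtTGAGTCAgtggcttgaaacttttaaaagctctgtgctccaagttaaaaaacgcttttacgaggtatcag
Aldh1l1, chr6:90550543-90550842, plus strand: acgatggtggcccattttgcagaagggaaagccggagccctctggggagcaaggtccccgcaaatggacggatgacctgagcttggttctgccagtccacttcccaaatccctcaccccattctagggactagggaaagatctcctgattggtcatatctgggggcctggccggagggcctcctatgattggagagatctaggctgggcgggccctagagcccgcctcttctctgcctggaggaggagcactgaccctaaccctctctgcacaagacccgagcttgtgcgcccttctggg
Fabp7, chr10:57784673-57784972, plus strand: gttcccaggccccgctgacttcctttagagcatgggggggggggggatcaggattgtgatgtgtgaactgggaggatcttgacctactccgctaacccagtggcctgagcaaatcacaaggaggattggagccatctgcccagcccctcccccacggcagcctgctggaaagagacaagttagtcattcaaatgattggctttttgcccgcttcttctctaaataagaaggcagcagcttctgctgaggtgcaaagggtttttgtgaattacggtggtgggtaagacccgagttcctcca
Glul, chr1:153899679-153899978, plus strand: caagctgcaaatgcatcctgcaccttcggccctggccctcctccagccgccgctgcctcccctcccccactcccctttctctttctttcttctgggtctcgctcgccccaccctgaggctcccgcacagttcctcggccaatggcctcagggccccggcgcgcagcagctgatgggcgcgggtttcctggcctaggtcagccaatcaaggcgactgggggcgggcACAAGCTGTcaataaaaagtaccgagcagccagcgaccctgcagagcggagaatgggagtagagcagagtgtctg
Slc4a4, chr5:88887010-88887309, plus strand: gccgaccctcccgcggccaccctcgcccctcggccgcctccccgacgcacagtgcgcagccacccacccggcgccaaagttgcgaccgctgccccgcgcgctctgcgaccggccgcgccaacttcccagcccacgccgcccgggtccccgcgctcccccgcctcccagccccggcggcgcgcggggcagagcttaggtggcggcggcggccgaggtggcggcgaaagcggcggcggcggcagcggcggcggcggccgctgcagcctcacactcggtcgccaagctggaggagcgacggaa
Slc4a4, chr5:89027716-89028015, plus strand: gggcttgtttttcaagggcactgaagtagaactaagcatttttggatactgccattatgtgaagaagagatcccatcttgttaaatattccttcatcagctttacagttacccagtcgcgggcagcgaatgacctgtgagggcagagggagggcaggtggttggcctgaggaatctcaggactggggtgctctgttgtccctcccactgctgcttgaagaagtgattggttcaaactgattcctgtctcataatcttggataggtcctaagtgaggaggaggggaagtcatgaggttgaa

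Both strands of the 10 windows were searched for 5 motifs. The glucocorticoid receptor motif ACANNNTGT is held by 6.85% of all 32851 promoter windows. It was found in Glul as ACAAGCTGT, 25 bases before the start, and in Slc1a2 as ACAGCATGT, 91 bases before a start that lies inside the annotated gene. The AP-1 motif TGANTCA, held by 7.81% of windows, was found in Gja1, 19 bases before the start. The STAT motif TTCNNNGAA, held by 8.3%, was found in Slc1a3 as TTCCAAGAA, 96 bases before the start. The TATA box TATAAA, held by 13.6%, was found in Slc1a3 on the opposite strand, and the NFI motif, held by 0.0365%, in none of the 10. No match overlapped another, and the windows of Gjb6, Aldh1l1, Kcnj10, Fabp7 and Slc4a4 held none of these letters. The 2 windows of Slc4a4 differed in base content, with 80.0% G and C in the first and 48.3% in the second, against a median of 52.7% over all windows.

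As astrocyte genes, all 10 were measurable: the brightest probe set of each exceeded every absent control on 12 of 12 arrays. Of 19 other astrocyte markers tested, 0 failed to exceed the controls in any group. Neuron, oligodendrocyte, microglia and vascular markers were also present, so the levels are those of mixed tissue. Fewer cells of a type and less RNA per cell cannot be told apart in such samples. Replicate arrays correlated at 0.992 to 0.998. The 3′ minus 5′ difference of the Gapdh control probe sets, which grows as RNA is cut or copied short, averaged 2.83 ± 0.27 in injured and 0.87 ± 0.03 in sham polysome arrays, and 1.40 ± 0.22 in injured and 0.23 ± 0.05 in sham total RNA arrays (log2, SD, n = 3 each). Each of these injured groups lay above its sham group on every array (exact two-sided permutation p = 0.1, the smallest that 3 against 3 allows). The spiked hybridisation controls, 18 probe sets, moved with injury too. Their median level was 9.83 ± 0.04 in injured and 10.15 ± 0.03 in sham polysome arrays, and 9.88 ± 0.06 in injured and 10.36 ± 0.13 in sham total RNA arrays, again without overlap (exact two-sided permutation p = 0.1 in each fraction). The part of RNA quality and of array signal in the results below was not tested.

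Over all 10371 genes, injured minus sham differences had a median of -0.04 on polysomes and 0.12 in total RNA (log2), and the deposited values were not scaled to a common distribution. With quantile normalization over the 12 arrays, the median over probe sets was 0.01 on polysomes and 0.00 in total RNA. Members are called at a limma adjusted p (Benjamini-Hochberg over 16566 probe sets) below 0.05, and levels and differences are on the log2 scale throughout.

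On polysomes, Aldh1l1, Gjb6 and Glul rose and Fabp7, Aqp4, Gja1 and Slc1a2 fell in injured relative to sham cord. Thus 3 of 10 members were called higher, where 13.5% of all genes were, and 4 lower, where 24.9% were. In total RNA, Gjb6, Aldh1l1, Slc1a3, Glul and Slc1a2 rose and Fabp7 fell, which is 5 of 10 members called higher, where 41.8% of all genes were, and 1 lower, where 17.9% were. The median change of the members was -0.11 on polysomes and 0.19 in total RNA. Without injured polysome replicate 2 the number lower on polysomes was 6, as Kcnj10 and Slc4a4 were then called. With quantile normalization the members' medians were -0.02 on polysomes and 0.02 in total RNA, and 3 were higher and 3 lower on polysomes, against 4 higher and 2 lower in total RNA. Under that setting 19.4% of all probe sets were higher and 20% lower on polysomes, and 22.1% higher and 21.3% lower in total RNA.

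**Figure D1:**
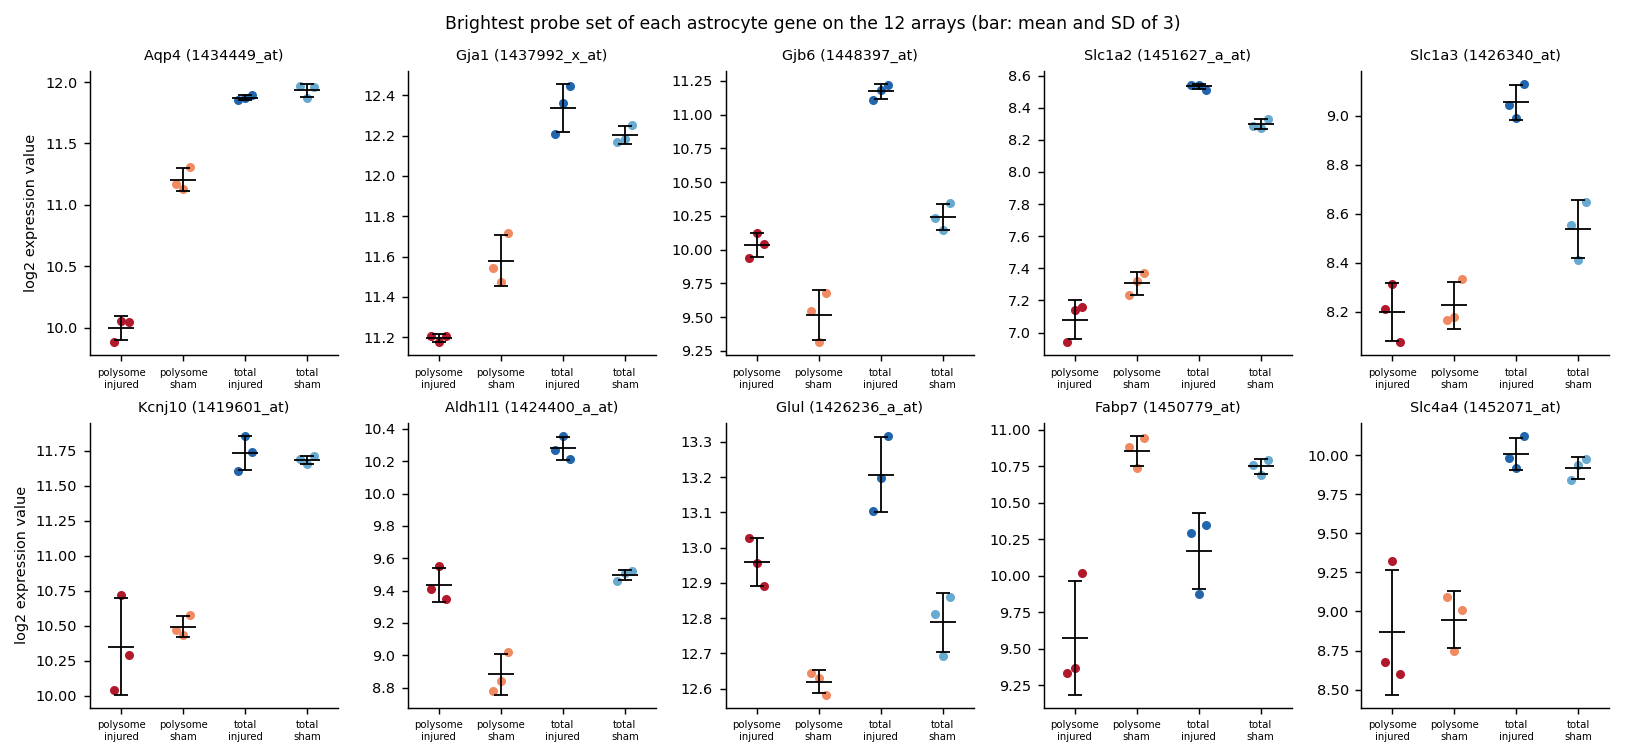
Log2 expression value of each of the 10 genes by its brightest probe set, in injured and sham polysome-bound RNA and injured and sham total RNA; dots are arrays, bars the mean with the SD of 3 arrays. Aqp4 lies between 9.88 and 10.06 in injured and between 11.13 and 11.31 in sham polysome-bound RNA, while its total RNA groups lie together, and Gjb6 and Aldh1l1 are higher in injured cord in both fractions.

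Aqp4 encodes aquaporin-4, the water channel of astrocyte endfeet. Its brightest probe set, 1434449_at, read 9.88, 10.06 and 10.05 in injured and 11.17, 11.13 and 11.31 in sham polysome-bound RNA. In total RNA it read 11.86, 11.87 and 11.89 in injured and 11.97, 11.87 and 11.96 in sham cord. The polysome groups lay more than 1 log2 unit apart on every array, whereas the total RNA groups overlapped. On polysomes Aqp4 fell by 1.21, or 2.31-fold (SE 0.07, limma adjusted p = 5.7e-08), and in total RNA the difference was -0.06 with an interval of -0.20 to 0.08 (limma adjusted p = 0.43). The change on polysomes minus that in total RNA was -1.15 (SE 0.09, limma adjusted p = 6.6e-06). It was -0.78 with quantile normalization (limma adjusted p = 7.8e-06), under which the total RNA difference became -0.29 and was called, as it was at -0.79 with the mean of both Aqp4 probe sets.

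The other Aqp4 probe set gave another picture in total RNA. Probe set 1425382_a_at read 8.95, 9.59 and 9.00 in injured and 10.62, 10.31 and 10.43 in sham polysome-bound RNA, so it fell by 1.27 (SE 0.15, limma adjusted p = 2.2e-05). In total RNA it read 9.65, 9.40 and 9.78 in injured and 11.04, 11.22 and 11.12 in sham cord, so it fell by 1.52, or 2.86-fold (SE 0.15, limma adjusted p = 2.8e-06). Injured arrays were below all sham arrays in both fractions here. Both probe sets thus fell on polysomes, while a fall in total RNA was read by 1425382_a_at and not by 1434449_at as deposited. For 1425382_a_at the change on polysomes minus that in total RNA was 0.24 (limma adjusted p = 0.33), or 0.78 and called with quantile normalization. Which parts of the transcript each probe set reads was not available to this comparison.

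Kcnj10 encodes Kir4.1, the inward-rectifier channel through which astrocytes take up potassium. It read 10.04, 10.72 and 10.29 in injured and 10.47, 10.43 and 10.58 in sham polysome-bound RNA, and in total RNA 11.61, 11.85 and 11.74 in injured and 11.69, 11.65 and 11.71 in sham cord. The groups overlapped in both fractions, and the injured polysome arrays were spread over more than any other Kcnj10 group. The difference was -0.14 on polysomes (interval -0.41 to 0.12, limma adjusted p = 0.4) and 0.05 in total RNA (interval -0.22 to 0.32, limma adjusted p = 0.75), and neither passed the test. Without injured polysome replicate 2, the Kcnj10 difference on polysomes was -0.33 and was called (limma adjusted p = 0.0079). The levels ran from the total RNA groups, which overlapped, down to the polysome groups, which overlapped too.

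Gja1 and Gjb6 encode the connexins Cx43 and Cx30, the main gap junction proteins of astrocytes. Gja1 (1437992_x_at) read 11.21, 11.17 and 11.20 in injured and 11.54, 11.47 and 11.72 in sham polysome-bound RNA. In total RNA it read 12.21, 12.36 and 12.45 in injured and 12.17, 12.18 and 12.25 in sham cord. The injured arrays were below every sham array on polysomes, and the groups overlapped in total RNA. Gja1 fell by 0.38 on polysomes (SE 0.07, limma adjusted p = 0.00076), and its total RNA difference of 0.14 (interval -0.02 to 0.29) missed the threshold (limma adjusted p = 0.11).

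Gja1 has 6 probe sets, more than any other member, and 6 of 6 were lower on polysomes, by -0.72 to -0.28. One of them, 1438650_x_at (-0.31, limma adjusted p = 0.01), lost its call when sham polysome replicate 3 was left out (-0.23) and with quantile normalization (-0.22). In total RNA the 6 differences ran from -0.15 to 0.18 and 0 of 6 were called. Leaving out injured total RNA replicate 1 made 1437992_x_at, 1438945_x_at and 1438650_x_at of Gja1 called higher there, at 0.20, 0.25 and 0.24. Without injured total RNA replicate 3, 1415801_at of Gja1 was called lower, at -0.27, and with quantile normalization the difference of 1437992_x_at changed sign to -0.10 and was not called. For 5 of 6 probe sets of Gja1 the change on polysomes was called below that in total RNA, at -0.52 for 1437992_x_at (SE 0.10, limma adjusted p = 0.00096), and with quantile normalization this was -0.23 and did not pass (limma adjusted p = 0.12).

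Gjb6 was higher in injured cord in both fractions. It read 9.94, 10.12 and 10.04 in injured and 9.55, 9.31 and 9.68 in sham polysome-bound RNA, and in total RNA 11.11, 11.19 and 11.22 in injured and 10.23, 10.15 and 10.35 in sham cord. Every injured array was above every sham array of its fraction. Gjb6 rose by 0.52, or 1.43-fold, on polysomes (SE 0.09, limma adjusted p = 0.00043) and by 0.93, or 1.91-fold, in total RNA (SE 0.09, limma adjusted p = 2.6e-06). The change on polysomes minus that in total RNA was -0.41 (SE 0.13, limma adjusted p = 0.015), and -0.12 with quantile normalization, where it was not called.

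The difference Gjb6 minus Gja1, taken within each array, was -1.16 ± 0.11 in injured and -2.06 ± 0.09 in sham polysome-bound RNA, and in total RNA -1.17 ± 0.06 in injured and -1.96 ± 0.07 in sham cord (SD, n = 3 each). The shift toward Gjb6 was 0.90 on polysomes and 0.79 in total RNA, with no overlap of arrays in either (exact two-sided permutation p = 0.1 each, 0.15 after adjustment over the 6 such tests made). No smaller p is possible with 3 arrays against 3. Within-array differences of this kind are unaffected by a shift common to an array, and they state only that the changes of the pair were unequal.

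Slc1a2 and Slc1a3 encode GLT-1 and GLAST, the astrocyte glutamate transporters. Slc1a2 read 6.94, 7.14 and 7.16 in injured and 7.23, 7.32 and 7.37 in sham polysome-bound RNA, and in total RNA 8.54, 8.54 and 8.51 in injured and 8.28, 8.27 and 8.33 in sham cord. Injury went with lower values on polysomes and higher ones in total RNA, without overlap in either fraction. Slc1a2 fell by 0.23 on polysomes (SE 0.06, limma adjusted p = 0.011) and rose by 0.24 in total RNA (SE 0.06, limma adjusted p = 0.0056). These small changes did not hold under every setting. On polysomes the Slc1a2 difference was -0.20 without sham polysome replicate 3 (limma adjusted p = 0.05, no longer called) and -0.14 with quantile normalization (limma adjusted p = 0.062), and in total RNA it was 0.14 with quantile normalization (limma adjusted p = 0.058). The change of Slc1a2 on polysomes minus that in total RNA, -0.46 (SE 0.09, limma adjusted p = 0.00095), was still called at -0.28 with quantile normalization (limma adjusted p = 0.014).

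Slc1a3 (1426340_at) read 8.21, 8.31 and 8.07 in injured and 8.16, 8.18 and 8.33 in sham polysome-bound RNA. In total RNA it read 9.04, 8.99 and 9.13 in injured and 8.55, 8.41 and 8.65 in sham cord. Only the total RNA groups were separate for this probe set. Slc1a3 rose by 0.52 in total RNA (standard error 0.08, limma adjusted p = 0.00012), and 1452031_at of the gene by 0.46 (limma adjusted p = 0.0008), while 1426341_at gave 0.03 (limma adjusted p = 0.72). On polysomes 1426340_at differed by -0.03 (interval -0.20 to 0.14) and 1452031_at by -0.11, neither called, and 1426341_at fell by 0.52 (SE 0.08, limma adjusted p = 0.00013). Probe set 1426341_at was thus unlike the others in each fraction. Yet the changes on polysomes minus those in total RNA were alike for all 3, at -0.54, -0.57 and -0.55, all called. With quantile normalization 1426340_at kept a difference of -0.32 (limma adjusted p = 0.027), and 1452031_at of Slc1a3, at -0.29, was not called. With the mean of the 3 probe sets, Slc1a3 was called lower on polysomes, at -0.22 (limma adjusted p = 0.017).

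For the transporter pair, Slc1a2 minus Slc1a3 was -0.52 ± 0.09 in injured and -0.24 ± 0.09 in sham total RNA (SD, n = 3 each). That shift of -0.28 had no overlap of arrays (exact two-sided permutation p = 0.1, adjusted p = 0.15). On polysomes the shift was -0.20 with overlapping arrays (exact two-sided permutation p = 0.3, adjusted p = 0.3). The direction depended on the probe set of Slc1a3, a choice looked at after seeing the data. With 1452031_at the shift was -0.22 in total RNA and -0.11 on polysomes, and with 1426341_at it was 0.20 (overlapping) and 0.29 (no overlap).

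Glul encodes glutamine synthetase, which joins glutamate and ammonia to glutamine. Its brightest probe set, 1426236_a_at, read 13.03, 12.96 and 12.89 in injured and 12.64, 12.63 and 12.58 in sham polysome-bound RNA, and in total RNA 13.10, 13.20 and 13.32 in injured and 12.81, 12.69 and 12.86 in sham cord. Injured arrays were above sham arrays in both fractions. Glul rose by 0.34 on polysomes (SE 0.06, limma adjusted p = 0.00062) and by 0.42 in total RNA (standard error 0.06, limma adjusted p = 7.4e-05), and the difference of these changes was -0.08 with an interval of -0.26 to 0.10 (limma adjusted p = 0.45).

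The dimmer Glul probe set, 1426235_a_at, read 10.45, 10.36 and 10.40 in injured and 10.55, 10.46 and 10.64 in sham polysome-bound RNA. In total RNA it read 10.65, 10.54 and 10.65 in injured and 9.98, 9.91 and 10.02 in sham cord. It rose by 0.64 in total RNA (standard error 0.06, limma adjusted p = 4e-06) and gave -0.14 on polysomes (limma adjusted p = 0.1). The Glul probe sets thus shared the rise in total RNA and differed on polysomes, and for 1426235_a_at the change on polysomes minus that in total RNA was -0.78 (SE 0.09, limma adjusted p = 4.1e-05). With the mean of both probe sets in place of the brightest, the Glul difference on polysomes was 0.10 and was not called (limma adjusted p = 0.18).

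Aldh1l1 encodes a cytosolic folate enzyme that is used widely as an astrocyte marker. Probe set 1424400_a_at read 9.41, 9.55 and 9.35 in injured and 8.78, 8.84 and 9.02 in sham polysome-bound RNA, and in total RNA 10.27, 10.36 and 10.21 in injured and 9.46, 9.51 and 9.52 in sham cord. The injured arrays were above all sham arrays in both fractions. Aldh1l1 rose by 0.55, or 1.47-fold, on polysomes (SE 0.08, limma adjusted p = 8.2e-05) and by 0.78, or 1.72-fold, in total RNA (SE 0.08, limma adjusted p = 3e-06). The difference of the changes, -0.23 (interval -0.46 to 0.00), did not pass (limma adjusted p = 0.088), but without injured polysome replicate 2 it was -0.29 and did. The other Aldh1l1 probe set, 1424401_at, exceeded the absent controls on 6 of 12 arrays and differed by 0.05 on polysomes and 0.11 in total RNA, neither called.

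Fabp7 encodes brain lipid-binding protein, a carrier of fatty acids in radial glia and astrocytes. It read 9.33, 9.37 and 10.02 in injured and 10.88, 10.74 and 10.94 in sham polysome-bound RNA. In total RNA it read 10.29, 9.87 and 10.35 in injured and 10.76, 10.69 and 10.79 in sham cord. The injured arrays were below all sham arrays in both fractions and were more spread, with replicate 3 highest in each. Fabp7 fell by 1.28, or 2.43-fold, on polysomes (SE 0.16, limma adjusted p = 3.4e-05) and by 0.58 in total RNA (SE 0.16, limma adjusted p = 0.006). The change on polysomes minus that in total RNA was -0.70 (SE 0.22, limma adjusted p = 0.017), which with quantile normalization was -0.21 and was not called (limma adjusted p = 0.42).

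Slc4a4 encodes the electrogenic sodium bicarbonate cotransporter NBCe1, which moves acid equivalents across the astrocyte membrane. Its brightest probe set, 1452071_at, read 8.68, 9.32 and 8.60 in injured and 9.09, 8.74 and 9.01 in sham polysome-bound RNA, and in total RNA 9.98, 9.92 and 10.12 in injured and 9.84, 9.94 and 9.98 in sham cord. The groups overlapped in both fractions. The differences were -0.08 on polysomes (interval -0.40 to 0.24, limma adjusted p = 0.7) and 0.09 in total RNA (interval -0.23 to 0.41, limma adjusted p = 0.62). With the mean of its tested probe sets, Slc4a4 was called lower in total RNA, at -0.39 (limma adjusted p = 0.011). Without injured polysome replicate 2, whose value of 9.32 stood above the other two, Slc4a4 was called lower on polysomes at -0.31 (limma adjusted p = 0.019).

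Another Slc4a4 probe set moved in opposite directions in the fractions. Probe set 1426432_a_at read 9.76, 9.82 and 9.39 in injured and 9.47, 9.11 and 9.35 in sham polysome-bound RNA, and in total RNA 8.70, 8.79 and 8.94 in injured and 9.52, 9.44 and 9.63 in sham cord. Injured arrays were below all sham arrays in total RNA, while the polysome groups overlapped. It fell by 0.72 in total RNA (standard error 0.11, limma adjusted p = 0.00015) and rose by 0.35 on polysomes (SE 0.11, limma adjusted p = 0.027). The rise on polysomes was lost for Slc4a4 without sham polysome replicate 2 (0.25) or 3 (0.36) or without injured polysome replicate 1 (0.30) or 2 (0.26). The change on polysomes minus that in total RNA was 1.06 (SE 0.16, limma adjusted p = 2e-04). The third tested Slc4a4 probe set, 1421225_a_at, fell by 0.53 in total RNA (standard error 0.10, limma adjusted p = 0.00061) and gave -0.15 on polysomes (limma adjusted p = 0.26), or -0.26 and called without injured polysome replicate 2. Its difference of changes, 0.38 (limma adjusted p = 0.041), was not called when any of 9 single arrays was left out, with values of 0.27 to 0.38 there.

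**Figure D2:**
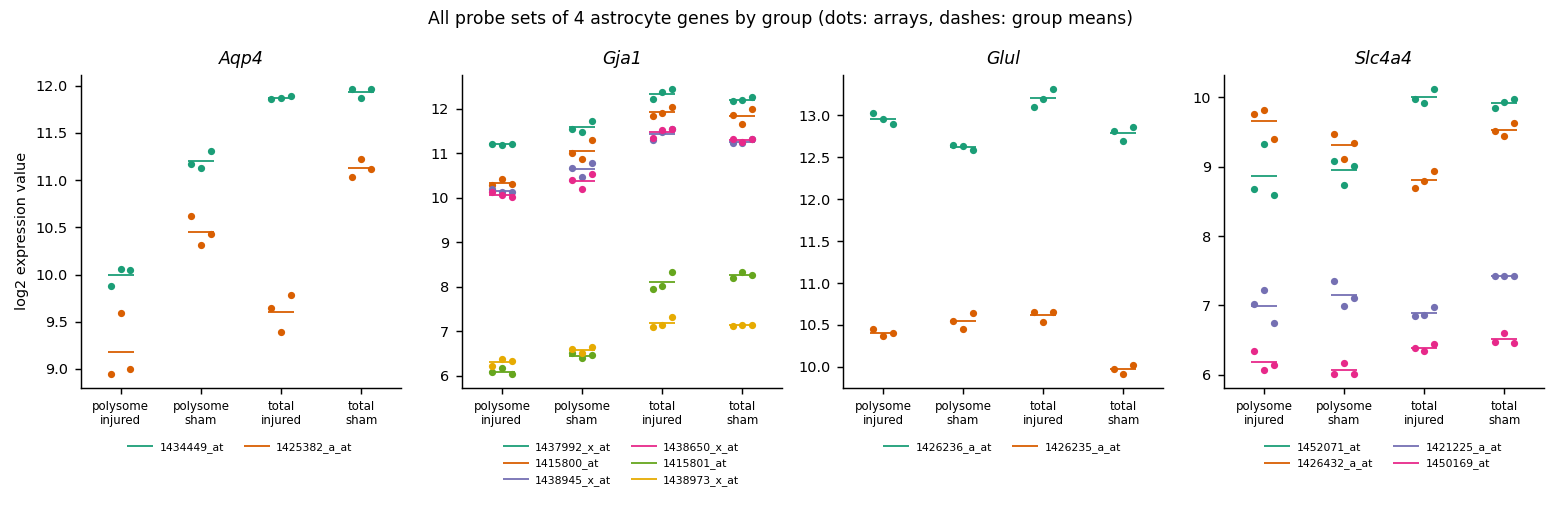
Log2 expression values of every probe set of Aqp4, Gja1, Glul and Slc4a4 by group; dots are arrays and dashes group means. The total RNA groups of Aqp4 overlap for 1434449_at and differ by -1.52 for 1425382_a_at, and 1426432_a_at of Slc4a4 is lower in injured than in sham total RNA.

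Counted over all probe sets, 4 of the 22 tested were higher and 11 lower on polysomes, beside 11.8% and 27.0% of all probe sets. In total RNA 7 were higher and 4 lower, beside 37.3% and 22.4%. Probe sets of 1 gene share its transcripts and are not separate evidence. With the brightest probe sets, 7 of 10 members had groups that did not overlap on polysomes, where 46.3% of all genes had none, and 6 of 10 in total RNA, where 72.7% had none.

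**Figure D3:**
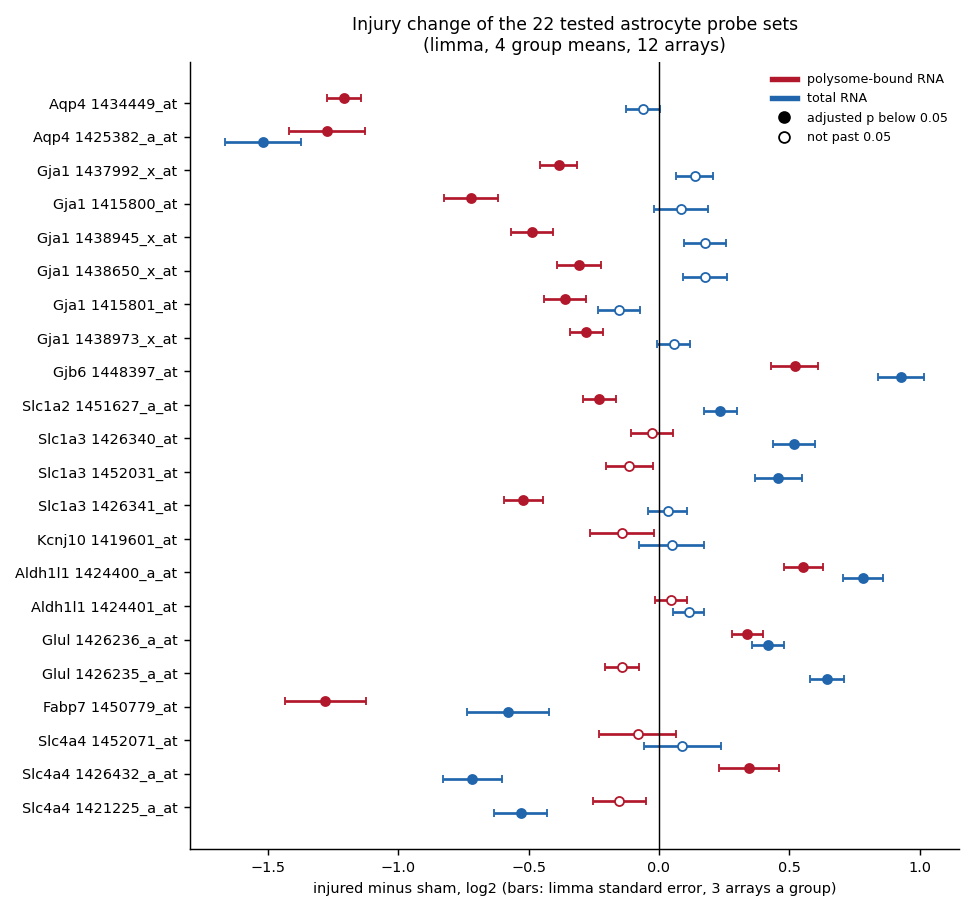
Injured minus sham difference (log2) of the 22 tested probe sets on polysomes and in total RNA, with limma standard errors; filled points passed an adjusted p of 0.05. All 6 Gja1 probe sets are below 0 on polysomes, and Gjb6 is above 0 in both fractions.

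The change on polysomes minus the change in total RNA was called below 0 for 6 of 10 members, Aqp4, Fabp7, Slc1a3, Gja1, Slc1a2 and Gjb6, and above 0 for 0 of 10. Of all genes, 38.9% were called below and 10.8% above. The median of all genes was -0.16, and that of the 1657 brightest tested probe sets was -0.32. The members' median was -0.44. With quantile normalization 3 members, Aqp4, Slc1a3 and Slc1a2, were called below 0 and the median was -0.17, beside 18.8% of all probe sets called below 0 under that setting. Without injured polysome replicate 2, 9 members were called below 0, with Aldh1l1, Kcnj10 (-0.38) and Slc4a4 (-0.40) joining. Over the probe sets, 13 of 22 were below and 2 above, both of them Slc4a4 probe sets, beside 37.0% and 13.6% of all probe sets.

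The comparison of polysome-bound with total RNA within each kind of cord asked how strongly each transcript was represented on polysomes. In injured cord 10 of 10 members were called lower in polysome-bound RNA, where 72.6% of all genes were. In sham cord 9 of 10 were, where 59.0% of all genes were, and 0 were higher in either, where 13.5% of genes in injured and 20.9% in sham cord were. Since most genes lay below 0, the members are read against the median of all genes, which was -0.41 in injured and -0.30 in sham cord. That reference depends on brightness. Over the 1657 brightest of the tested probe sets the median was -0.07 in injured and 0.25 in sham cord. The probe sets used for Glul, Gja1, Aqp4 and Kcnj10 are among those. Relative to the median of all genes, 9 of 10 members were lower in injured cord and 8 of 10 in sham cord. The members' median differences were -1.14 in injured and -0.68 in sham cord. With each array centred on its own median, 8 members were lower and 1 higher in injured cord, and 5 were lower and 3 higher in sham cord. Under that centring 26.1% of all probe sets were lower and 50.5% higher in injured cord, and 23.1% lower and 50.1% higher in sham cord. As deposited, the fractions did not overlap for 9 of 10 members in either cord, Fabp7 being the exception in both, where 84.8% of all genes in injured and 86.2% in sham cord did not. Over the 22 probe sets, 20 were lower and 1 higher in injured cord, beside 73.7% and 12.9% of all probe sets, and 19 were lower and 1 higher in sham cord, beside 62.6% and 18.6%.

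Among the brightest probe sets, the largest difference in injured cord was that of Aqp4, at -1.88 (limma adjusted p = 8.8e-12), beside -0.73 in sham cord. The other Aqp4 probe set, 1425382_a_at, gave -0.43 in injured cord with overlapping fractions (limma adjusted p = 0.013), and lost its call without injured total RNA replicate 3 (-0.34) or injured polysome replicate 1 (-0.31) or 3 (-0.34), and with quantile normalization (-0.06). Of the probe sets that are not the brightest, 1415801_at of Gja1 gave -2.01 and 1426341_at of Slc1a3 -1.90 in injured cord. Slc1a2 gave -1.45 in injured and -0.99 in sham cord, Kcnj10 -1.38 and -1.19, Slc4a4 -1.14 and -0.97, and Gjb6 -1.14 and -0.73, in the same order of cords. Gja1 gave -1.14 in injured and -0.62 in sham cord, Slc1a3 -0.86 and -0.31, and Aldh1l1 -0.84 and -0.61. Glul gave -0.25 in injured cord, where it was the member nearest to even, and -0.17 in sham cord. Both values were above the median of all genes. They were below the medians of the 1657 brightest tested probe sets, -0.07 in injured and 0.25 in sham cord. The sham value of Glul was not called without sham total RNA replicate 1 (-0.16) or 3 (-0.13) or sham polysome replicate 3 (-0.15), and 1426235_a_at of Glul was higher on polysomes in sham cord, at 0.58 (limma adjusted p = 1.1e-06). Fabp7 was lower on polysomes in injured cord, at -0.60 (limma adjusted p = 0.0024), and gave 0.10 in sham cord (limma adjusted p = 0.54). Against the other members, 1426432_a_at of Slc4a4 was higher on polysomes in injured cord, at 0.85 (limma adjusted p = 6.2e-06), and gave -0.22 in sham cord, which did not pass in the fit over 12 arrays and passed in a fit of the sham arrays with the replicate number as a block (-0.22, limma adjusted p = 0.0028).

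**Figure D4:**
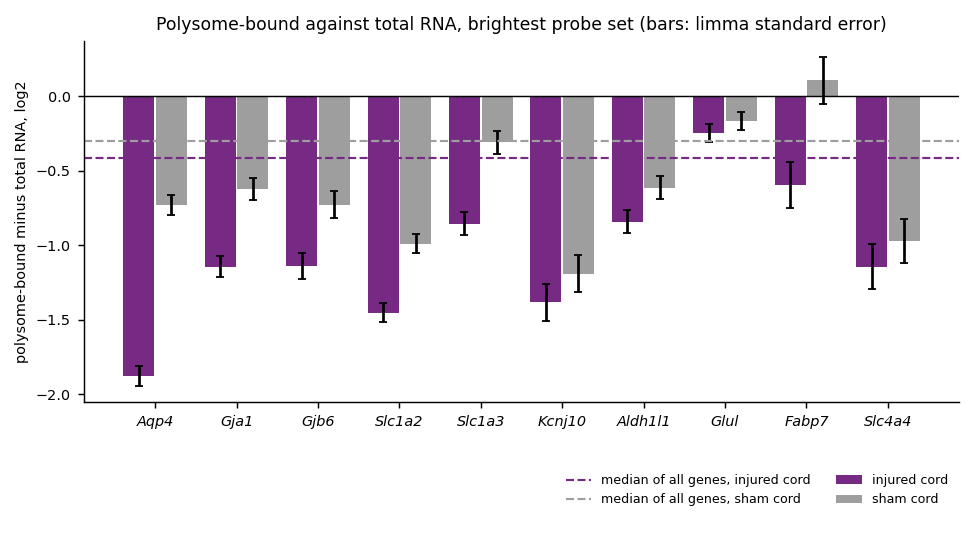
Polysome-bound minus total RNA (log2) of the 10 members by their brightest probe sets in injured and sham cord, with limma standard errors; dashed lines are the medians of all genes, -0.41 in injured and -0.30 in sham cord. Aqp4 has the lowest injured value, -1.88, and Glul lies above both medians.

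In the order of its 4 levels, total RNA lay above polysome-bound RNA for Aqp4, Kcnj10, Gja1, Gjb6, Slc1a2, Slc1a3, Aldh1l1 and the brightest Slc4a4 probe set, with no overlap between fractions of either cord. Neighbouring levels that overlapped were the total RNA groups of Aqp4, Gja1, Kcnj10 and Slc4a4 and the polysome groups of Kcnj10, Slc1a3 and Slc4a4. They were also injured polysome-bound and sham total RNA for Aldh1l1, and the fractions of each cord for Fabp7. For Aqp4 and Kcnj10, which meet at the endfoot, the within-array difference Kcnj10 minus Aqp4 was 0.36 ± 0.27 in injured and -0.71 ± 0.02 in sham polysome-bound RNA (SD, n = 3 each). That shift of 1.07 had no overlap (exact two-sided permutation p = 0.1, adjusted p = 0.15), whereas the shift of 0.11 in total RNA overlapped (exact two-sided permutation p = 0.2, adjusted p = 0.24). With 1425382_a_at as the Aqp4 probe set, a choice looked at after seeing the data, the shift was 1.13 on polysomes and 1.57 in total RNA, both without overlap, so the contrast between fractions rests on 1434449_at.

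Other genes of the same pathways were counted by list, with genes named from the 3 brightest of each. Some genes, Gfap among them, are in more than 1 list, so the counts of different lists are not fully separate. For comparison, 13.5% of all genes were higher and 24.9% lower on polysomes, and 41.8% higher and 17.9% lower in total RNA, with medians of -0.04 and 0.12. Of 9 genes of the endfoot and the dystrophin complex, which anchors aquaporin-4, 0 were higher and 5 lower on polysomes, and 3 higher and 1 lower in total RNA, with medians of -0.22 and 0.07. Mlc1, an endfoot membrane protein, fell on polysomes by 0.38, whereas Utrn and Dag1, which belong to the complex, gave -0.17 and -0.18 there and rose in total RNA by 0.35 and 0.25. Of 10 potassium, pump and gap junction partners, 0 were higher and 3 lower on polysomes, and 6 higher and 2 lower in total RNA, with medians of -0.08 and 0.13. Among them Atp1b2, a sodium pump subunit of astrocytes, fell on polysomes by 0.15 and rose in total RNA by 0.23, Atp1b1 gave 0.02 and a rise of 0.11, and the cotransporter Slc12a2 gave -0.01 and a rise of 0.14. With quantile normalization the total RNA rises of Utrn, Dag1, Atp1b1, Atp1b2 and Slc12a2 and the fall of Atp1b2 on polysomes were not called. Standard errors of the genes named from these lists were 0.04 to 0.12.

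Of 15 genes of glutamate and amino acid handling, 3 were higher and 7 lower on polysomes, and 6 higher and 3 lower in total RNA, with medians of -0.19 and 0.12. Got1, an aspartate aminotransferase, fell on polysomes by 0.19 and rose in total RNA by 0.22, and Glud1, glutamate dehydrogenase, fell by 0.23 and rose by 0.25. Got2, the mitochondrial aminotransferase, rose on polysomes by 0.28 and gave 0.12 in total RNA. The total RNA rises of Got1 and Glud1 were not called with quantile normalization, nor was the fall of Got1 on polysomes with arrays centred. Of 9 acid-base genes, 1 was higher and 3 lower on polysomes, and 3 higher and 2 lower in total RNA, with medians of -0.10 and 0.00. Car2, a carbonic anhydrase also made by oligodendrocytes, fell by 0.72 on polysomes and by 0.46 in total RNA, and Atp6v1a, a proton pump subunit, rose by 0.30 and 0.59. Of 10 folate, serine and lipid binding genes, 3 were higher and 3 lower on polysomes, and 5 higher and 1 lower in total RNA, with medians of 0.04 and 0.17. Among the 5 higher in total RNA, 1 exceeded the absent controls on 0 of the 12 arrays. Fabp5, a relative of Fabp7, fell on polysomes by 0.24, a call lost with arrays centred, and gave 0.07 in total RNA. The 5 other aquaporin family genes tested had 0 higher and 1 lower on polysomes and 0 higher and 2 lower in total RNA, against 1 higher and 0 lower in total RNA with quantile normalization. They were dim, and Aqp5 and Aqp2 exceeded the absent controls on 3 and 1 of the 12 arrays. Of 11 astrocyte transcription factors, 1 was higher and 3 lower on polysomes, and 4 higher and 3 lower in total RNA.

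The reactive astrocyte genes that were called were all higher in injured cord. Of 18 tested, 15 were higher and 0 lower on polysomes, and 18 higher and 0 lower in total RNA, with median changes of 0.69 on polysomes and 1.46 in total RNA. With quantile normalization 16 were higher on polysomes and 17 in total RNA. Hspb1, a small heat shock protein, rose by 2.00 on polysomes and 2.87 in total RNA, Vim by 0.64 and 1.41, and Gfap by 0.41 and 0.76. These genes were listed because they are known from injury, and several are also made by other cells. For 11 of the 18 the polysome change was called below that in total RNA, where 38.9% of all genes were. With quantile normalization 10 were below and 1 above, beside 18.8% and 17.2% of all probe sets. Of 19 other astrocyte markers, 5 were higher and 8 lower on polysomes, and 12 higher and 0 lower in total RNA, with medians of -0.15 and 0.26, and Apoe, which encodes a lipid carrier, fell on polysomes by 0.43. Aldoc and Clu, an aldolase and a secreted chaperone, were called higher in both fractions as deposited and in neither with quantile normalization. Under that setting 4 of the 19 were higher on polysomes and 4 in total RNA, near the shares of all probe sets, 19.4% and 22.1%.

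**Figure D5:**
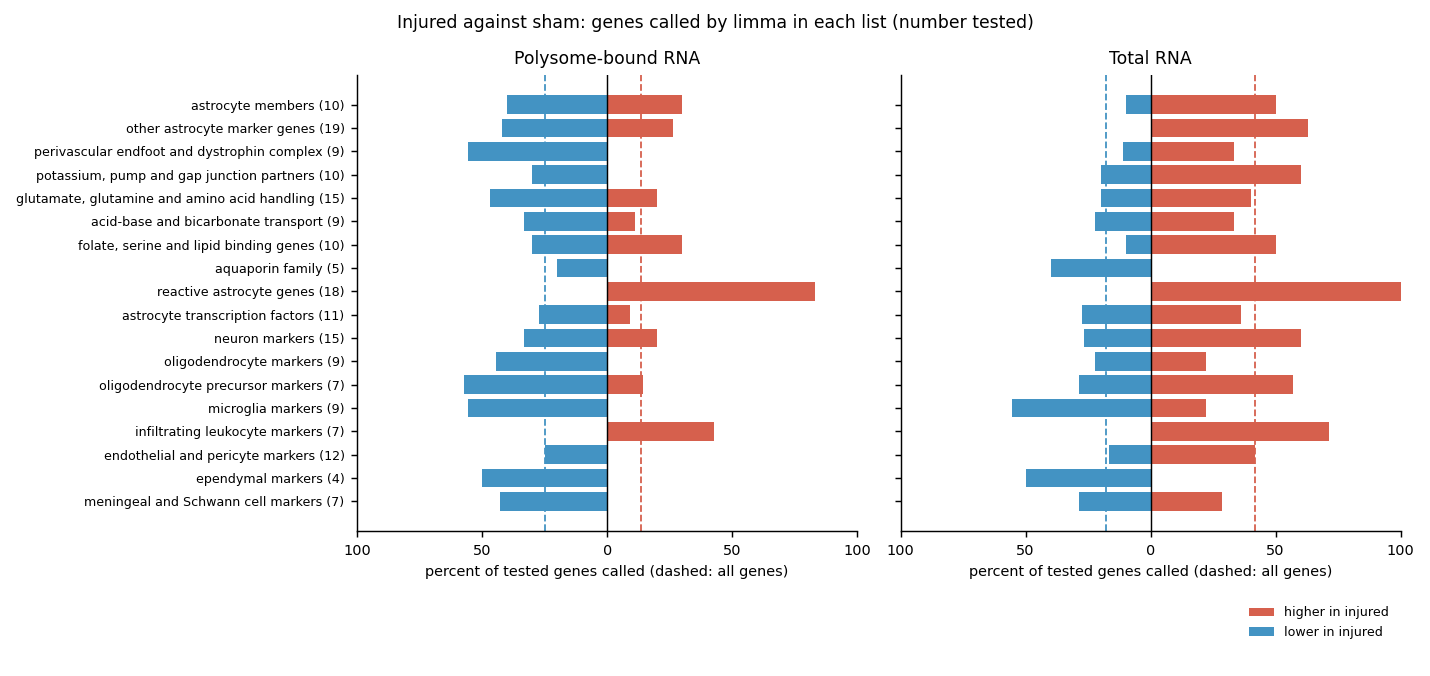
Share of tested genes called higher or lower in injured cord for each gene list, on polysomes and in total RNA, with the share over all 10371 genes as dashed lines. The reactive astrocyte genes have 15 of 18 higher on polysomes and 18 of 18 in total RNA, and 0 lower in either.

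Markers of other cells were counted in the same way. Of all genes, 13.5% were higher and 24.9% lower on polysomes, and 41.8% higher and 17.9% lower in total RNA. Of 15 neuron markers, 3 were higher and 5 lower on polysomes, and 9 higher and 4 lower in total RNA. With quantile normalization those neuron counts were 1 higher and 6 lower on polysomes, and 0 higher and 4 lower in total RNA. Under that setting 19.4% of all probe sets were higher and 20% lower on polysomes, and 22.1% higher and 21.3% lower in total RNA. Of 9 oligodendrocyte markers, 0 were higher and 4 lower on polysomes, and 2 higher and 2 lower in total RNA. Of 9 microglia markers, 0 were higher and 5 lower on polysomes, and 2 higher and 5 lower in total RNA. Of 12 endothelial and pericyte markers, 0 were higher and 3 lower on polysomes, and 5 higher and 2 lower in total RNA. Apart from the 0 higher on polysomes, the endothelial and pericyte counts lie near the shares of all genes. The microglia markers were lower more often than all genes in both fractions, with medians of -0.22 on polysomes and -0.29 in total RNA. The oligodendrocyte markers were lower more often on polysomes and higher less often in total RNA. These lists are short, and their departures from the shares of all genes were not tested. Levels were also summed over each list on the linear scale and given as log2, so the brightest genes weigh most in a sum. The neuron markers came to 15.88 to 15.95 in both injured and sham polysome-bound RNA. In total RNA they came to 16.07 to 16.12 in injured and 15.88 to 15.96 in sham cord. The summed level of the oligodendrocyte markers was 15.17 to 15.25 in injured and 15.36 to 15.39 in sham polysome-bound RNA, and in total RNA 15.93 to 16.07 in injured and 15.92 to 15.96 in sham cord. The microglia markers summed to 11.42 to 11.62 in injured and 11.68 to 11.92 in sham polysome-bound RNA, and in total RNA to 11.99 to 12.09 in injured and 12.08 to 12.26 in sham cord, which overlap. The infiltrating leukocyte markers summed to 10.76 to 11.69 in injured and 10.40 to 10.62 in sham polysome-bound RNA, and in total RNA 12.41 to 13.04 in injured and 11.44 to 11.67 in sham cord. Of the 7 leukocyte markers tested, 3 were higher on polysomes and 5 in total RNA, and 0 lower in either. The 10 members summed to 13.95 to 14.02 in injured and 14.01 to 14.13 in sham polysome-bound RNA, which overlap, and to 14.72 to 14.87 in injured and 14.51 to 14.62 in sham total RNA, which do not. The part of other cells in the members' changes was not tested.

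The genes most alike in pattern were sought by the distance between 4 group means, each set centred on its gene, over 10371 genes. Aqp4 had the most distant nearest genes, Lyz2 and Lyz1 at 0.0888 and 0.105 log2 units. The nearest were Lipa at 0.00928 and Tmem9b at 0.0172 for Gja1, and Esm1 at 0.0314 and Lpl at 0.0384 for Gjb6. They were Golm1 at 0.00771 and Rp2 at 0.0117 for Slc1a2, Slc8a1 at 0.0163 and Mpdz at 0.0207 for Slc1a3, and Zfp410 at 0.0177 and Mnt at 0.0215 for Glul. They were Zfp672 at 0.0197 and Kank3 at 0.0229 for Kcnj10, Ptpn11 at 0.0422 and Otud7b at 0.0461 for Aldh1l1, Get3 at 0.0712 and Tst at 0.0837 for Fabp7, and Clk2 at 0.018 and Dffb at 0.0189 for Slc4a4. No member was among the 2 nearest genes of another.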

How the data were processed

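The authors deposited a log2 expression value for each probe set on each array. That scale was inferred, since the values lie between 5.26 and 14.6 and no label states it, and the background correction and normalization are not given in the sources used here. Per the labels, biotinylated cRNA was hybridised to Affymetrix arrays. The values were used as deposited. The array annotation named 1 gene for 20393 of 22690 probe sets, several for 691 and none for 1606, and 10 members with 23 probe sets were taken from the first kind. Probe sets above the 25th percentile of an array on at least 3 of 12 arrays were tested, which left 16566.

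Differences were fitted with limma 3.58.1 in R 4.3.3 (a mean per group over all 12 arrays, empirical Bayes with intensity trend, Benjamini-Hochberg adjustment over 16566 probe sets, threshold 0.05). Intervals are 95% intervals of that fit. The procedure was tested on simulated data. Single measures were compared by exact permutation tests. All member probe sets, the 3 brightest tested genes of each other list, the 2 genes nearest each member in pattern, and Gapdh, the RNA quality target, are those the text could name. The 10 members and the lists were chosen with earlier results of these data known.

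Whether equal replicate numbers mark the same animal is not stated. Equal-numbered polysome and total RNA arrays of sham cord deviated together over genes (r of 0.19, 0.17 and 0.14), so the numbers were taken to pair them there, and a fit of those arrays with the number as a block was added after seeing the data. The other group pairs did not meet that rule. Alternatives were other filters, gene summaries, normalizations, moderation, array weights, samples in the fit, replicate blocks and leaving out each array. Promoter windows are from RefSeq, GRCm38.p6.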

Additional observations from a re-analysis of the deposited data

Results flagged for a closer look

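For 15 member probe sets the injury change on polysomes differed from that in total RNA by limma's test of the difference itself (adjusted p below 0.05). The differences, polysome-bound minus total RNA on the log2 scale, were -1.15 for Aqp4 (1434449_at), -0.70 for Fabp7, -0.46 for Slc1a2 and -0.41 for Gjb6. For Gja1 they were -0.52 (1437992_x_at), -0.81 (1415800_at), -0.67 (1438945_x_at), -0.48 (1438650_x_at) and -0.33 (1438973_x_at), and for Slc1a3 -0.54, -0.57 and -0.55. Glul differed at 1426235_a_at alone, by -0.78. The 2 Slc4a4 probe sets differed the other way, by 1.06 (1426432_a_at) and 0.38 (1421225_a_at). Of all probe sets, 37.0% were called below 0 and 13.6% above, and RNA quality moved with injury in both fractions; its part in these differences was not tested.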

How the results depend on the processing

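Across the settings tried on all arrays, 1277 of 1385 values of the members kept their direction and side of the threshold, 37 lost the call, 24 gained one, 33 changed sign with no call before or after, and 14 changed sign with a call. With the mean of each gene's probe sets, 3 members were lower in injured than in sham total RNA, 1 had a polysome change above its total RNA change, and 1 was higher on polysomes in sham cord. The reversed values there were -0.39 (total RNA) and 0.42 (difference of the changes) for Slc4a4 and 0.20 for Glul on polysomes in sham cord. With quantile normalization over 12 arrays or within fractions, 2 members were lower in total RNA and 3 had a polysome change below that in total RNA. Over 12 arrays, sign changes that involved a call were polysome-bound minus total RNA values, of 0.0361 for Glul 1426235_a_at in injured cord, and of 0.0537 for Gja1 1438973_x_at and 0.29 for Slc4a4 1421225_a_at in sham cord. Uncalled injury changes in total RNA also changed sign there, to -0.10 for Gja1 1437992_x_at, -0.21 for Kcnj10 1419601_at and -0.20 for Slc4a4 1452071_at among others. Read with 1426341_at of Slc1a3, chosen after seeing the data, Slc1a2 minus Slc1a3 shifted by 0.20 in total RNA and 0.29 on polysomes, opposite to the brightest probe set. With each array centred on its median, polysome-bound minus total RNA was higher for 1 member in injured cord, and higher for 3 and lower for 5 in sham cord. Reversed in injured cord were Aqp4 1425382_a_at (0.17), Glul (0.35 and 0.39) and Fabp7 (0.0053), and in sham cord Slc1a3 1426340_at (0.20), Glul 1426236_a_at (0.34) and Slc4a4 (0.29 for 1426432_a_at and 0.24 for 1421225_a_at). These differences follow the shift that centring removes, since the median over probe sets was -0.44 in injured and -0.35 in sham cord as deposited and 0.16 in both when centred.

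Leaving out single arrays turned the sign of 0 called values among 1320, and of 12 with no call before or after. The number of members higher in total RNA ranged from 5 to 6, with 6 without injured total RNA replicate 1. The number lower on polysomes ranged from 3 (without sham polysome replicate 3) to 6 (without injured polysome replicate 2), and the number with a lower change on polysomes from 6 to 9, with 9 without injured polysome replicate 2. Lower on polysomes in sham cord were 8 to 9. The replicate block, fixed or random, left every member count as it was, and the block fit of sham arrays gave 0 higher and 9 lower. It changed 2 calls of single probe sets, 1421225_a_at of Slc4a4 (difference of the changes 0.38, limma adjusted p = 0.051) and 1426432_a_at of Slc4a4, given with the polysome comparison. Weighting the arrays, which gave 0.22 and 0.41 to injured polysome replicates 1 and 2 and between 0.87 and 2.01 to each other array, gave 7 members with a lower change on polysomes.

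Over the whole table, some counts moved by more than 1.5 times under scaling and others by less. Higher and lower probe sets in total RNA numbered 6184 and 3717 as deposited and 3663 and 3531 with quantile normalization (62.5% and 50.9% of calls higher). On polysomes they numbered 1955 and 4468, against 3207 and 3312 (30.4% and 49.2% higher) or 3482 and 3208 when centred (52% higher). For the difference of changes they were 2245 and 6130, against 2848 and 3112 (26.8% and 47.8%) or 3498 and 4822 when centred (42%). Polysome-bound minus total RNA gave 2133 higher and 12216 lower in injured cord, against 6527 and 5715 with quantile normalization and 8366 and 4331 when centred (14.9%, 53.3% and 65.9%). In sham cord it gave 3074 and 10370, against 6098 and 5239 and then 8292 and 3823 (22.9%, 53.8% and 68.4%). Quantile normalization within fractions gave 3428 higher in total RNA, 3357 higher on polysomes and 3048 below 0 for the difference. A filter at the array median, which tests 11490 probe sets, gave 1384 lower in total RNA, 849 above 0 for the difference, and 7548 (injured) and 5535 (sham) lower on polysomes. One value per gene tests 10371 and gave smaller counts, and the shares moved as well. Lower in total RNA were 22.4% of probe sets as deposited, 18.1% of genes by the brightest probe set and 21.6% by the mean of probe sets.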
